A study of Mus musculus with 12 samples.

Results

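The 31 genes of cholesterol and fatty acid synthesis described here were chosen by name from the 23586 genes measured, by their place in these pathways. The rule itself uses no measured value, although the list was drawn up with earlier results of these data known. They comprise 4 regulators of lipid synthesis, 7 enzymes from acetyl-CoA to farnesyl diphosphate, 11 enzymes from farnesyl diphosphate to cholesterol, 1 sterol carrier and 8 enzymes that make, elongate or desaturate fatty acids. All 31 were measured and all passed the filter on low values.

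RNA was sequenced from cultured muscle stem cells of mice, the resident progenitors that repair skeletal muscle. All cells carried the Pax3nLacZ-IRES-GFP allele, in which GFP reports transcription of Pax3, a transcription factor that marks progenitors of muscle. They were sorted into GFP-positive and GFP-negative cells, cultured with 20% serum and basic FGF at 4 ng/mL, and transfected by lipofection with 2 µg of pCR3-Six2, which holds the mouse Six2 coding DNA, or of the empty pCR3 plasmid. Six2 encodes a homeobox transcription factor. The 4 groups of 3 libraries were GFP-positive cells with SIX2 plasmid, GFP-negative cells with SIX2 plasmid, GFP-positive cells with empty plasmid and GFP-negative cells with empty plasmid. Each sample held at least 50000 cells. The age of the mice is not given in the sources used here, and no label states whether the 3 libraries of a group are separate animals or separate cultures. The p-values therefore measure the spread between these libraries, which may be technical.

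Libraries of SIX2 plasmid held 12.6 to 15.5 (GFP-positive) and 34.0 to 40.2 (GFP-negative) reads in units of 1e6, against 31.3 to 47.3 (GFP-positive) and 12.4 to 33.2 (GFP-negative) for the empty plasmid. Values are normalized counts, in which 1 read was worth 0.553 to 2.14. Six2 itself stayed low, at 28.6, 23.4 and 6.51 normalized counts in the GFP-positive SIX2 libraries, against 5.35, 13.3 and 3.37 in their controls. In GFP-negative cells it had 22.8, 23.7 and 19.2 in the SIX2 libraries, against 4.28, 15.9 and 24.4 in the controls. The groups overlapped in both populations, and the differences did not pass in GFP-positive cells (log2 1.26, limma-trend adjusted p = 0.209) or GFP-negative cells (log2 0.80, adjusted p = 0.421). The labels could therefore not be checked by Six2, and the groups are called SIX2-labelled and control-labelled below. Pax3, whose transcription the GFP reports, was lower under the SIX2 label in GFP-positive cells (log2 −2.82, adjusted p = 0.00029). It was also lower in GFP-negative cells (log2 −2.06, adjusted p = 0.0022). Between the control-labelled populations Pax3 did not differ, with means of 72.2 in GFP-positive and 71.4 in GFP-negative cells (log2 −0.01, adjusted p = 0.991). Marker sums differed between the labels. Summed markers of myogenic cells, led by Des, were 152034 to 168318 normalized counts in GFP-positive SIX2-labelled libraries, against 179040 to 199823 in their controls. In GFP-negative cells they were 121300 to 137468 under the SIX2 label, against 178922 to 208192 under the control label. Des, the intermediate filament of muscle, fell in both populations (log2 −0.29 in GFP-positive cells, limma-trend adjusted p = 0.0159, and −0.67 in GFP-negative cells, adjusted p = 5.55e-05). Myf5, also among the 5 myogenic markers, rose by 0.77 in GFP-positive cells (adjusted p = 0.000353) and by 1.32 in GFP-negative cells (adjusted p = 6.47e-06). Of the 5, 2 were called higher and 1 lower in GFP-positive cells, beside 12.1% and 11.2% of all tested genes. In GFP-negative cells 2 were higher and 2 lower, beside 13.6% and 14.3%. The sums of 3 measured pericyte markers of 4 were 1861 to 2928 in GFP-positive SIX2-labelled libraries, against 3182 to 3546 in their controls. In GFP-negative cells these were 1865 to 2577 under the SIX2 label, against 2708 to 3254 under the control label. Cspg4 and Abcc9, which made up most of these sums, had lower means under the SIX2 label in both populations. The pericyte marker Rgs5 went the other way in GFP-negative cells, with 11.4, 42.8 and 31.3 against 4.28, 7.14 and 11.3 (log2 1.69). In GFP-positive cells Rgs5 had 10.7, 13.6 and 21.2, against 22.9, 29.9 and 20.2 in the controls. None of 5 adipocyte markers was among the genes analysed. Macrophage and leukocyte sums, with 4 of 5 markers measured, overlapped between labels, at 30.9 to 48.7 (SIX2) against 24.4 to 46.7 (control) in GFP-positive cells and 27.7 to 58.0 (SIX2) against 19.03 to 37.5 (control) in GFP-negative cells. Their marker Csf1r rose, however, to 17.9 to 26.8 in GFP-positive SIX2-labelled libraries, against 1.66 to 11.5 in their controls, and to 13.8 to 38.6 in GFP-negative ones, against 2.14 to 10.3 (adjusted p = 0.0413 in GFP-positive and 0.0166 in GFP-negative cells), with overlap in neither. Cd68, the other tested marker of this list, did not rise. Its log2 difference was −1.10 in GFP-positive cells (adjusted p = 0.12) and −0.13 in GFP-negative cells (adjusted p = 0.879). Adgre1 and Lyz2 had at most 1.43 and 1.88 normalized counts in any library. Summed fibro-adipogenic markers, of which 3 of 5 were measured, were 23.4 to 35.7 in GFP-positive SIX2-labelled libraries, against 8.44 to 13.0 in their controls. The same sums were 28.6 to 47.5 in GFP-negative SIX2-labelled libraries, against 6.57 to 14.3 in their controls. Of these markers only Ly6a passed the filter on low values, with log2 differences of 2.36 in GFP-positive and 1.75 in GFP-negative cells. Pi16 had 8.41, 2.21 and 5.91 in GFP-positive controls and 0 in each GFP-positive SIX2-labelled library. Dpp4 had at most 6.62 in any library. The part of these shifts in the differences below was not tested.

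Cells make cholesterol from acetyl-CoA through mevalonate, farnesyl diphosphate, squalene and lanosterol, and make fatty acids from the same acetyl-CoA through malonyl-CoA. The transcription factors SREBP1 and SREBP2 are held in the endoplasmic reticulum by SCAP and INSIG while sterols are plentiful. When sterols run low they move to the Golgi, are cut, and raise transcription of enzymes of both pathways. In growing myoblasts, as in other dividing cells, these pathways supply lipid for new membranes.

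Under the SIX2 label the enzymes of fatty acid synthesis and those of cholesterol synthesis did not move as one block. Of the 8 fatty acid enzymes, 6 rose and 2 fell in GFP-positive cells, and 4 rose and 1 fell in GFP-negative cells. Of the 18 enzymes from acetyl-CoA to cholesterol, 1 rose (5.56%) and 6 fell (33.3%) in GFP-positive cells, and 2 rose (11.1%) and 5 fell (27.8%) in GFP-negative cells. Over all tested genes, 12.1% were called higher and 11.2% lower in GFP-positive cells, and 13.6% higher and 14.3% lower in GFP-negative cells. The share of sterol enzymes that rose was thus no larger than that of all genes. Elovl6, Fads1 and Fads2, which lengthen or desaturate fatty acid chains, and Stard4, a carrier of cholesterol between membranes, rose in both populations. Dhcr7, the enzyme that makes cholesterol from 7-dehydrocholesterol, and Tm7sf2, a sterol C14-reductase, fell in both.

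Over all 31 genes, 16 passed in GFP-positive cells (8 higher and 8 lower) and 16 in GFP-negative cells (7 higher and 9 lower), at a limma-trend adjusted p under 0.05 over 14580 genes. In each population these were 51.6% of the 31. The share called among all tested genes was 23.3% in GFP-positive cells and 27.9% in GFP-negative cells. Among the 8465 tested genes whose mean level lay in the range of the 31, the share was 28.4% in GFP-positive cells and 34.2% in GFP-negative cells. The median log2 difference of the 31 was −0.04 in GFP-positive cells and −0.07 in GFP-negative cells, beside −0.01 and 0.00 over all tested genes. Groups of SIX2-labelled and control-labelled libraries did not overlap for 7 genes that were higher and 11 that were lower in GFP-positive cells, beside 18.7% and 18.1% of all tested genes. In GFP-negative cells they did not overlap for 8 higher and 15 lower genes, beside 22.8% and 23.5%. In bulk RNA, fewer cells that express a gene and less RNA of it per cell cannot be told apart.

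The comparisons in GFP-positive and GFP-negative cells share no library, but both come from 1 fit of the 12 libraries with a shared estimate of the spread. Acly, Elovl6, Fads1, Fads2, Lss and Stard4 rose in both, and Dhcr7, Fdps, Pmvk, Scd2 and Tm7sf2 fell in both. These 11 genes, 35.5% of the 31, are 6 higher (19.4%) and 5 lower (16.1%), and none was called in opposite directions. The share of all tested genes called the same way in both, higher or lower, was 13.7%. A test of whether the plasmid labels differed by unequal amounts in the populations passed for none of the 31 genes, with limma-trend, edgeR or DESeq2. Over all 14580 tested genes it passed for 0 with limma-trend, 0 with edgeR and 558 with DESeq2. At an unadjusted p under 0.05 it held for 4 of the 31 and for 2437 of all genes, and the smallest adjusted p among the 31 was 0.19. A call in 1 population alone, as for Fasn or Srebf1, is therefore not shown to differ between them.

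**Figure D1:**
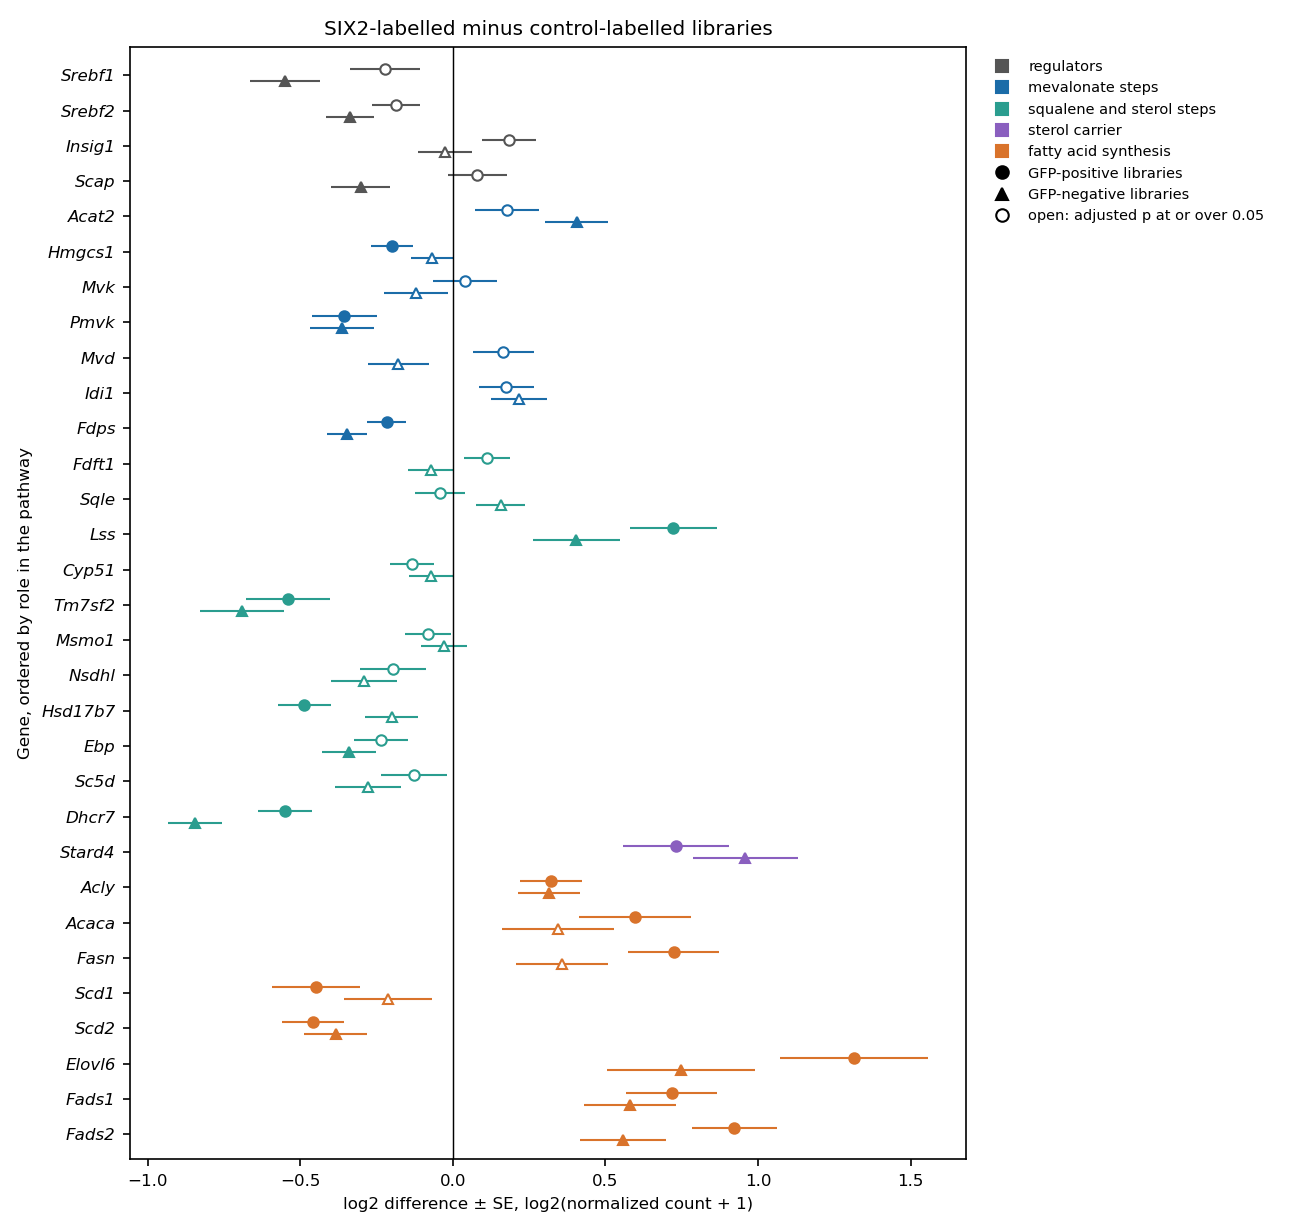
Difference between SIX2-labelled and control-labelled libraries for each of the 31 genes, on the scale of log2(normalized count + 1), with its standard error; circles are GFP-positive and triangles GFP-negative libraries, filled where the limma-trend adjusted p was under 0.05, and colours give the role. Fatty acid enzymes other than Scd1 and Scd2 sit right of 0, with Elovl6 at 1.31 in GFP-positive cells, and Dhcr7 lies farthest left, at −0.84 in GFP-negative cells.

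Among the regulators, mRNA of both SREBP genes was lower under the SIX2 label in GFP-negative cells. Srebf1 encodes SREBP1, which acts mainly on fatty acid genes, and lies on chromosome 11 at 60199089 to 60222581 (GRCm38, minus strand). In GFP-negative cells it had 1068, 1002 and 813 normalized counts in SIX2-labelled libraries, against 1600, 1413 and 1212 in control-labelled libraries. GFP-positive SIX2-labelled libraries gave 1036, 1117 and 1159, against 1306, 1322 and 1231 in their controls. The groups did not overlap in either population, but Srebf1 fell past the threshold in GFP-negative cells alone, by 0.55 ± 0.11 (log2 ± SE, limma-trend adjusted p = 0.00295). In GFP-positive cells the log2 difference was −0.22 ± 0.11 (adjusted p = 0.19). Srebf2 encodes SREBP2, which acts mainly on cholesterol genes. In GFP-negative cells it had 2220, 2258 and 1941 normalized counts under the SIX2 label, against 2682, 2612 and 2801 under the control label. Its GFP-positive values were 2562, 2138 and 2415 under the SIX2 label, against 2671, 2708 and 2693 under the control label. Every SIX2-labelled value lay below every control of its population. Srebf2 fell by 0.34 ± 0.08 in GFP-negative cells (adjusted p = 0.00614), and the log2 difference in GFP-positive cells was −0.19 ± 0.08 (adjusted p = 0.108).

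The genes of the retention complex gave smaller differences. Scap, the escort protein that carries SREBP to the Golgi, had 1114, 1017 and 881 normalized counts in GFP-negative SIX2-labelled libraries, against 1326, 1209 and 1167 in their controls. It had 1063, 957 and 1045 in GFP-positive SIX2-labelled libraries, against 1006, 991 and 904 in their controls. The groups were apart in GFP-negative cells and overlapped in GFP-positive cells. Scap fell by 0.30 ± 0.10 in GFP-negative cells (adjusted p = 0.0327), while the log2 difference in GFP-positive cells was 0.08 (adjusted p = 0.609). Insig1, which anchors SCAP in the endoplasmic reticulum and is itself raised by SREBP, had 722, 688 and 721 in GFP-positive SIX2-labelled libraries, against 596, 662 and 618 in their controls. The GFP-negative libraries gave 797, 763 and 797 with the SIX2 label, against 889, 754 and 763 with the control label. The groups were apart in GFP-positive cells, but Insig1 passed neither there (log2 0.18, adjusted p = 0.159) nor in GFP-negative cells (log2 −0.03, adjusted p = 0.865). In GFP-positive cells none of the 4 regulators passed with limma-trend, edgeR or DESeq2, beside 23.3% of all tested genes with limma-trend. An unadjusted limma-trend p under 0.05 was held by 1 of the 4 and by 5099 of the 14580 tested genes.

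GC content of the transcript moved with the plasmid label in GFP-negative cells. For the genes richest in GC, those at or above 58.1%, the median deviation from the all-library mean was −0.119 to −0.0463 in GFP-negative SIX2-labelled libraries, against 0.0653 to 0.133 in their controls, on the log2 scale. In GFP-positive cells it was −0.0702 to 0.0779, against 0.000487 to 0.0903. The Srebf1, Srebf2 and Scap transcripts hold 58.4%, 57.9% and 59.1% GC, near or above that limit. With the GC trend of each library removed, Srebf1 still fell by 0.41 (adjusted p = 0.0121) and Srebf2 by 0.20 (adjusted p = 0.0334) in GFP-negative cells. Scap then had a log2 difference of −0.15 (adjusted p = 0.232). The Scap call also ended without GFP-negative control library 1 or 2, or without GFP-negative SIX2-labelled library 2 or 3 (adjusted p = 0.0672 to 0.135). An RNA gene on the opposite strand, 5830462I19Rik, shares 13.1% of the 50-base words of Scap, and these libraries do not mark strand. That RNA gene had at most 4.76 normalized counts in any library.

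Many sterol genes carry sites for SREBP, and for the factor NF-Y, close to their start. The windows shown reach from the annotated start 250 bases upstream (RefSeq, GRCm38.p6), printed 5′ to 3′ along the gene's strand, for an enzyme with the sterol element and for genes that moved in opposite directions. Capitals mark TCACNCCAC, a core of the sterol regulatory element, and CCAAT, the core bound by NF-Y, or ATTGG where CCAAT lies on the other strand. The windows are those of Hmgcs1 at chr13:119690101-119690350 (plus strand), Tm7sf2 at chr19:6067851-6068100 (minus strand), Lss at chr10:76531355-76531604 (plus strand) and Fasn at chr11:120824548-120824797 (minus strand).
Hmgcs1: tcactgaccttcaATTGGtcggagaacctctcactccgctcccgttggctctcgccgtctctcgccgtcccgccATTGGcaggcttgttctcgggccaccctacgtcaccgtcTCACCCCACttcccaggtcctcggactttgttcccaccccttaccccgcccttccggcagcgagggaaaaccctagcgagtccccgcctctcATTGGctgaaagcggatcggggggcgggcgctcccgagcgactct
Tm7sf2: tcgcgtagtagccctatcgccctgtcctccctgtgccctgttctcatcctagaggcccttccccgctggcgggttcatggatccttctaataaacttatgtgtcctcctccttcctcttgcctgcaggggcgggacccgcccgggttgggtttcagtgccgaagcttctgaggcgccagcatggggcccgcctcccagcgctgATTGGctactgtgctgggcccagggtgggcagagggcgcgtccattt
Lss: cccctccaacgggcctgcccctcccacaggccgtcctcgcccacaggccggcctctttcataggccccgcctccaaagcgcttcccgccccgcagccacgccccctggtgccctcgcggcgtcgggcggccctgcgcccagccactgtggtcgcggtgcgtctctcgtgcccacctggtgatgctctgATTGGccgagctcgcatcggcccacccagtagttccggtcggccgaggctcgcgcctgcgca
Fasn: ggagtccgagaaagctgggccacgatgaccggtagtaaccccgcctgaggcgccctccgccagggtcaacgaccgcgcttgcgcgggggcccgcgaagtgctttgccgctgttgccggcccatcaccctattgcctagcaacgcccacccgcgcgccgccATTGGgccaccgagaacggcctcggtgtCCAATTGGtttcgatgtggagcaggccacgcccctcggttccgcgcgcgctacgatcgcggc
Hmgcs1 holds TCACNCCAC once and CCAAT on the other strand. Tm7sf2, which fell, and Lss, which rose, each hold CCAAT on the other strand, and Fasn holds CCAAT on both strands, which overlap in the run in capitals nearest the start.

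Promoter entries, 250 bases before to 50 after the start, were matched for 24 of the 31 genes. Both strands were searched. CCAAT stood in 19 of the 24 (79.2%), beside 41.1% of 27025 genes with an entry. TCACNCCAC stood in 1 of the 24 (4.17%), beside 1.44% of genes. A match describes these letters in this window and is not a site of binding. Fdps, Fdft1, Sqle, Stard4, Scd1, Scd2 and Fads1 were without an entry.

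Between acetyl-CoA and farnesyl diphosphate, 3 of 7 genes fell (42.9%) and none rose in GFP-positive cells, beside 11.2% and 12.1% of all tested genes. In GFP-negative cells 2 fell (28.6%) and 1 rose (14.3%), beside 14.3% and 13.6% of all tested genes. Fdps, farnesyl diphosphate synthase, averaged 4418 ± 112 normalized counts in GFP-positive SIX2-labelled libraries and 5141 ± 327 in their controls (SD, n = 3 each). GFP-negative libraries averaged 4242 ± 146 under the SIX2 label and 5403 ± 337 under the control label. The groups did not overlap in either population, and Fdps fell by 0.22 ± 0.07 in GFP-positive cells (adjusted p = 0.0273) and by 0.35 ± 0.07 in GFP-negative cells (adjusted p = 0.00145). Pmvk, phosphomevalonate kinase, averaged 465 ± 31.8 in GFP-positive SIX2-labelled libraries and 595 ± 42.8 in their controls. The GFP-negative means were 448 ± 28.3 under the SIX2 label and 578 ± 51.7 under the control label. It fell by 0.36 ± 0.11 in each population (adjusted p = 0.0259 in GFP-positive and 0.0199 in GFP-negative cells), with no overlap between groups. Reads of Fdps are uncertain in their assignment, since 86.4% of the 50-base words of its transcript also occur in other genes, chiefly Gm43738.

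Acat2, the thiolase that joins acetyl-CoA in the cytosol, rose in GFP-negative cells to 1282 ± 156 normalized counts in SIX2-labelled libraries, against 963 ± 30.4 in controls (log2 0.41 ± 0.10, adjusted p = 0.0101). GFP-positive libraries averaged 1060 ± 39.8 under the SIX2 label and 941 ± 109 under the control label, with an adjusted p of 0.247. It shares 45.9% of its 50-base words with Acat3, which had at most 9.77 normalized counts in any library. Another 50-base overlap is with Tcp1, which shares 13.2% of the words of Acat2 and had 13052 to 16752 normalized counts. Hmgcs1, HMG-CoA synthase, averaged 2510 ± 188 in GFP-positive SIX2-labelled libraries and 2878 ± 135 in their controls, with no overlap, and fell by 0.20 ± 0.07 (adjusted p = 0.049). That call was lost in 17 of 26 alternative settings, among them the omission of any single library other than GFP-positive control 3 and GFP-positive SIX2-labelled 3 (adjusted p = 0.0537 to 0.166). In GFP-negative cells the log2 difference of Hmgcs1 was −0.07 (adjusted p = 0.496), or −0.20 (adjusted p = 0.0398) with the GC trend removed. Mvk, Mvd and Idi1 did not pass in either population, with log2 differences of −0.18 to 0.22. These genes encode mevalonate kinase, diphosphomevalonate decarboxylase and isopentenyl-diphosphate isomerase. The Pmvk call in GFP-positive cells was lost without control library 1 or 3 or SIX2-labelled library 2 or 3 (adjusted p = 0.0614 to 0.0931). In GFP-negative cells it was lost without control library 3 or SIX2-labelled library 1 or 2 (adjusted p = 0.0569 to 0.0861), and with the GC trend removed (log2 −0.25, adjusted p = 0.0957). Fdps in GFP-positive cells no longer passed without control library 3 or SIX2-labelled library 2 (adjusted p = 0.0868 to 0.11).

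The 11 genes from farnesyl diphosphate to cholesterol contained the largest fall of the 31 and a rise within the same chain of steps. In each population 3 fell (27.3%), 1 rose (9.09%) and 7 did not pass. Over all tested genes 11.2% were lower and 12.1% higher in GFP-positive cells, and 14.3% lower and 13.6% higher in GFP-negative cells. Dhcr7 (chromosome 7, 143823145 to 143848410, plus strand) encodes 7-dehydrocholesterol reductase, the last step of one branch to cholesterol. In GFP-positive cells it had 1231, 1247 and 1223 normalized counts in SIX2-labelled libraries, against 1787, 1785 and 1849 in controls. With GFP-negative cells, SIX2-labelled libraries held 1184, 960 and 912, against 1744, 1855 and 1855 in control-labelled ones. Every SIX2-labelled value lay far below the lowest control of its population. Dhcr7 fell by 0.55 ± 0.09 in GFP-positive cells (adjusted p = 0.000632) and by 0.84 ± 0.09 in GFP-negative cells (adjusted p = 2.48e-05). The ratio of means was 0.68 in GFP-positive and 0.56 in GFP-negative cells, and both calls held in all 26 alternative settings.

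Tm7sf2 (chromosome 19, 6062821 to 6068373, minus strand) encodes an enzyme that reduces the C14 double bond after lanosterol demethylation. It had 247, 267 and 283 normalized counts in GFP-positive SIX2-labelled libraries, against 407, 408 and 346 in their controls. GFP-negative SIX2-labelled libraries gave 256, 252 and 193, against 407, 374 and 345 in their controls. The groups were apart in both populations. Tm7sf2 fell by 0.54 ± 0.14 in GFP-positive cells (adjusted p = 0.0123) and by 0.69 ± 0.14 in GFP-negative cells (adjusted p = 0.00232). Lbr, which encodes a second enzyme able to carry out the same reduction, rose by 0.64 ± 0.08 in GFP-positive cells (adjusted p = 5.86e-05) and by 0.56 ± 0.08 in GFP-negative cells (adjusted p = 0.000149). Divided by transcript length, Lbr averaged 568 ± 33.3 normalized counts per kilobase in GFP-positive SIX2-labelled libraries and 363 ± 26.9 in their controls. Per kilobase, Tm7sf2 averaged 181 ± 12.5 in the same SIX2-labelled libraries and 263 ± 24.3 in those controls. Lbr was thus the more abundant per kilobase in both groups. In GFP-negative cells Lbr averaged 592 ± 20.9 per kilobase under the SIX2 label and 402 ± 14.7 under the control label, and Tm7sf2 averaged 159 ± 23.9 under the SIX2 label and 255 ± 21 under the control label (SD). The levels of these enzymes were further apart under the SIX2 label than under the control label in both populations. Thinned to the depth of the smallest library, Tm7sf2 no longer passed in GFP-positive cells (adjusted p = 0.0805).

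Lss (chromosome 10, 76531588 to 76557138, plus strand) encodes lanosterol synthase, which closes the sterol rings, and moved the other way. It had 525, 592 and 633 normalized counts in GFP-positive SIX2-labelled libraries, against 308, 438 and 324 in their controls. Its GFP-negative values were 625, 676 and 550 under the SIX2 label, against 512, 420 and 465 under the control label. Every SIX2-labelled value lay above every control of its population. Lss rose by 0.72 ± 0.14 in GFP-positive cells (adjusted p = 0.00261) and by 0.40 ± 0.14 in GFP-negative cells (adjusted p = 0.0489). The call in GFP-negative cells sat at the threshold and was lost on leaving out GFP-negative control library 1, 2 or 3, GFP-negative SIX2-labelled library 1 or 2, GFP-positive control library 3 or GFP-positive SIX2-labelled library 2 (adjusted p = 0.0501 to 0.169).

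Hsd17b7, a 3-ketosteroid reductase of the C4-demethylation steps, averaged 1389 ± 74.5 normalized counts in GFP-positive SIX2-labelled libraries and 1945 ± 39.3 in their controls, and fell by 0.49 ± 0.09 (adjusted p = 0.00133). The GFP-negative means were 1343 ± 123 under the SIX2 label and 1544 ± 149 under the control label, and did not pass (log2 −0.20, adjusted p = 0.105). With the GC trend removed Hsd17b7 passed there too (log2 −0.32, adjusted p = 0.0151). Ebp, the sterol isomerase, averaged 1503 ± 156 in GFP-negative SIX2-labelled libraries and 1899 ± 127 in their controls, and fell by 0.34 ± 0.09 (adjusted p = 0.0112). That call was lost without GFP-negative control library 3 (adjusted p = 0.0512), and in GFP-positive cells the log2 difference was −0.23 (adjusted p = 0.0715), or −0.25 (adjusted p = 0.0435) with the GC trend removed. Sqle, squalene epoxidase and a control point of the pathway, averaged 1286 ± 32.3 in GFP-positive SIX2-labelled libraries and 1325 ± 54.3 in their controls. It averaged 1557 ± 167 in GFP-negative SIX2-labelled libraries and 1392 ± 36.9 in their controls, and passed in neither population. Fdft1, Cyp51, Msmo1, Nsdhl and Sc5d also passed in neither, with log2 differences of −0.29 to 0.11. With the GC trend removed, Sc5d (log2 −0.41, adjusted p = 0.00601) and Nsdhl (log2 −0.38, adjusted p = 0.0171) passed as lower in GFP-negative cells, and each passed there in 7 of 26 alternative settings. These 5 genes encode squalene synthase, lanosterol demethylase, and enzymes of C4 demethylation and C5 desaturation. Reads of Fdft1 may include reads of Ctsb, which overlaps it on the other strand and shares 19.9% of its 50-base words.

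Stard4, which encodes a small protein that moves cholesterol between membranes and is itself a known SREBP2 target, lies outside the chain of synthesis. It had 204, 195 and 194 normalized counts in GFP-positive SIX2-labelled libraries, against 120, 143 and 97.0 in their controls. The GFP-negative libraries gave 228, 235 and 186 with the SIX2 label, against 114, 119 and 99.4 with the control label. All 6 SIX2-labelled values were above all 6 control values. Stard4 rose by 0.73 ± 0.17 in GFP-positive cells (adjusted p = 0.00799) and by 0.96 ± 0.17 in GFP-negative cells (adjusted p = 0.00113), with a ratio of means of 1.65 in GFP-positive and 1.96 in GFP-negative cells. Both calls held in all 26 alternative settings.

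**Figure D2:**
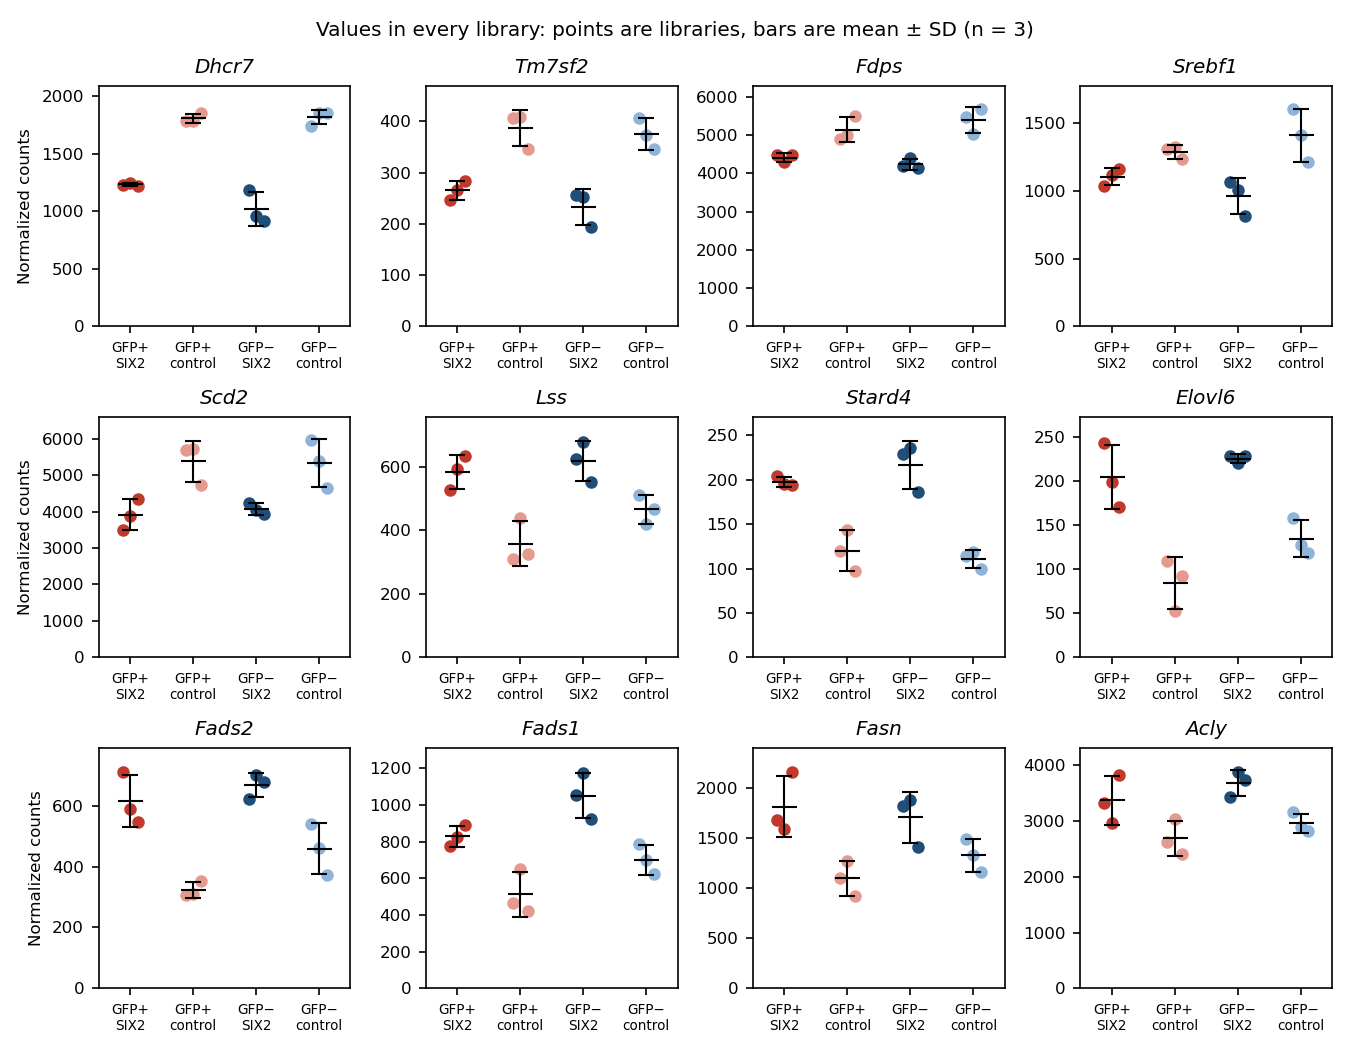
Normalized counts per library for 12 of the 31 genes, 1 panel per gene on its own linear axis from 0, with points for the 3 libraries of each group and bars for the mean ± SD. The SIX2-labelled points of Dhcr7 and Tm7sf2 sit below their controls and those of Stard4 and Lss above them, in both populations.

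Among the 8 genes of fatty acid synthesis, Acly, Acaca, Fasn, Elovl6, Fads1 and Fads2 rose under the SIX2 label in GFP-positive cells. The stearoyl-CoA desaturase genes Scd1 and Scd2 fell there. Other genes of the elongation cycle went both ways, as given below. All 8 genes passed in GFP-positive cells, with a median log2 difference of 0.66, and 5 of 8 passed in GFP-negative cells, with a median of 0.35. Over all tested genes 23.3% passed in GFP-positive cells and 27.9% in GFP-negative cells. Acly, ATP citrate lyase, which makes cytosolic acetyl-CoA, averaged 3373 ± 435 normalized counts in GFP-positive SIX2-labelled libraries and 2694 ± 317 in their controls. GFP-negative libraries averaged 3684 ± 233 under the SIX2 label and 2958 ± 177 under the control label. It rose by 0.32 ± 0.10 in each population (adjusted p = 0.0339 in GFP-positive and 0.033 in GFP-negative cells), although the groups overlapped in GFP-positive cells. In GFP-positive cells the call was lost without control library 1 or 3 or SIX2-labelled library 1 or 3 (adjusted p = 0.0672 to 0.127). In GFP-negative cells it was lost without control library 2 or 3 or SIX2-labelled library 2 or 3 (adjusted p = 0.0846 to 0.113).

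Fasn (chromosome 11, 120805846 to 120824547, minus strand) encodes fatty acid synthase, which builds palmitate. It had 1688, 1598 and 2164 normalized counts in GFP-positive SIX2-labelled libraries, against 1099, 1274 and 926 in their controls. With GFP-negative cells, SIX2-labelled libraries held 1828, 1887 and 1411, against 1491, 1338 and 1160 in control-labelled ones. The groups were apart in GFP-positive cells, and in GFP-negative cells 1 SIX2-labelled library lay below the highest control. Fasn rose by 0.72 ± 0.15 in GFP-positive cells (adjusted p = 0.0036). In GFP-negative cells the log2 difference was 0.36 ± 0.15 (adjusted p = 0.0935), or 0.49 (adjusted p = 0.0219) with the GC trend removed.

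Acaca encodes acetyl-CoA carboxylase 1, which makes malonyl-CoA and commits acetyl-CoA to fatty acids. It had 606, 542 and 695 normalized counts in GFP-positive SIX2-labelled libraries, against 384, 545 and 314 in their controls. GFP-negative SIX2-labelled libraries gave 693, 483 and 533, against 461, 422 and 448 in their controls. The groups overlapped in GFP-positive cells through control library 2 and were apart in GFP-negative cells. Acaca rose by 0.60 ± 0.18 in GFP-positive cells (adjusted p = 0.0301), and the log2 difference in GFP-negative cells was 0.34 ± 0.18 (adjusted p = 0.184). The call was lost without GFP-positive control library 1 or 3 or SIX2-labelled library 1 or 3 (adjusted p = 0.0622 to 0.122). Gm5182, which shares 52.6% of the 50-base words of Acaca, had at most 14.3 normalized counts in any library.

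Elovl6 (chromosome 3, 129532355 to 129638495, plus strand) encodes the elongase that takes palmitate to stearate. It had 243, 199 and 171 normalized counts in GFP-positive SIX2-labelled libraries, against 109, 52.0 and 92.0 in their controls. Its GFP-negative values were 228, 220 and 228 under the SIX2 label, against 159, 128 and 118 under the control label. Both pairs of groups were apart, and the lowest values of all were those of the GFP-positive controls. Elovl6 rose by 1.31 ± 0.24 in GFP-positive cells (adjusted p = 0.00164), with a ratio of means of 2.42, and by 0.75 ± 0.24 in GFP-negative cells (adjusted p = 0.0344), with a ratio of 1.67. In GFP-negative cells the call was lost without control library 2 or 3, without any 1 of the 3 SIX2-labelled libraries (adjusted p = 0.0748 to 0.108), and with the GC trend removed (log2 0.63, adjusted p = 0.073).

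Fads1 and Fads2 encode the delta-5 and delta-6 desaturases of polyunsaturated fatty acids and are neighbours on chromosome 19, at 10182888 to 10196877 (plus strand) and 10062765 to 10101746 (minus strand). Fads1 had 774, 822 and 889 normalized counts in GFP-positive SIX2-labelled libraries, against 467, 648 and 419 in their controls. It had 1055, 1171 and 925 in GFP-negative SIX2-labelled libraries, against 786, 697 and 623 in their controls. No groups overlapped, and Fads1 rose by 0.72 ± 0.15 in GFP-positive cells (adjusted p = 0.0037) and by 0.58 ± 0.15 in GFP-negative cells (adjusted p = 0.0108). Fads2 had 711, 588 and 547 in GFP-positive SIX2-labelled libraries, against 305, 312 and 352 in their controls. The GFP-negative libraries gave 624, 702 and 678 with the SIX2 label, against 542, 461 and 373 with the control label. It too was apart between labels, and rose by 0.92 ± 0.14 in GFP-positive cells (adjusted p = 0.000414) and by 0.56 ± 0.14 in GFP-negative cells (adjusted p = 0.00945). Without GFP-negative SIX2-labelled library 2, Fads1 no longer passed in GFP-negative cells (adjusted p = 0.0528), and neither did Fads2 there with all libraries thinned to the depth of the smallest (adjusted p = 0.0573).

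Scd1 and Scd2 encode the delta-9 desaturases that make oleate and palmitoleate, and both fell in GFP-positive cells. Scd2, the higher of them per kilobase, averaged 3915 ± 420 normalized counts in GFP-positive SIX2-labelled libraries and 5380 ± 564 in their controls. GFP-negative libraries averaged 4068 ± 157 under the SIX2 label and 5334 ± 653 under the control label. No groups overlapped, and Scd2 fell by 0.46 ± 0.10 in GFP-positive cells (adjusted p = 0.00571) and by 0.38 ± 0.10 in GFP-negative cells (adjusted p = 0.013). The call in GFP-negative cells was lost without control library 1 (adjusted p = 0.0642). Scd1 averaged 841 ± 196 in GFP-positive SIX2-labelled libraries and 1130 ± 57.1 in their controls, with 1 value between the controls, and fell by 0.45 ± 0.14 (adjusted p = 0.0375). The GFP-negative means were 968 ± 93.3 under the SIX2 label and 1125 ± 151 under the control label, and did not pass (log2 −0.21, adjusted p = 0.306). The Scd1 call was lost in 11 of 26 alternative settings, 7 of them omissions of 1 library: any GFP-positive control library, GFP-positive SIX2-labelled library 1 or 2, or GFP-negative library 2 of either label (adjusted p = 0.0503 to 0.141). The desaturases share 4.66% of the 50-base words of Scd1 and 4.01% of those of Scd2 with other genes, chiefly their own family.

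Between the sorted populations, few of the 31 genes differed. Under the SIX2 label none passed between GFP-positive and GFP-negative cells with limma-trend, edgeR or DESeq2. Of all tested genes, limma-trend called 0.0137% higher and 0.178% lower, while edgeR called 29 genes and DESeq2 294. An unadjusted limma-trend p under 0.05 was held by 7 of the 31 and by 1893 of the 14580 tested genes. The populations did not overlap under that label for 2 higher and 8 lower genes, beside 9.05% and 8.16% of all tested genes. Under the control label 2 of the 31 were lower in GFP-positive cells, beside 2.56% of all tested genes called lower (3.48% in either direction), and none was higher, beside 0.919%. The lower genes were Insig1 (log2 −0.36 ± 0.09, adjusted p = 0.0451), with the values given above, and Fdft1, squalene synthase. Fdft1 had 1087, 1000 and 1010 normalized counts in GFP-positive controls, against 1337, 1262 and 1269 in GFP-negative controls (log2 −0.32 ± 0.08, adjusted p = 0.0373). Neither pair of groups overlapped. Under the control label the populations did not overlap for 1 higher and 7 lower genes of the 31, beside 13.0% and 14.1% of all tested genes. The calls of Insig1 and Fdft1 were lost on omission of any single library other than GFP-positive SIX2-labelled 1 and 3 for Insig1 (adjusted p = 0.0516 to 0.206), and of any control-labelled library or GFP-negative SIX2-labelled library 2 for Fdft1 (adjusted p = 0.0597 to 0.159). Elovl6, Fads1 and Fads2 had log2 differences of −0.72, −0.47 and −0.49 between the control-labelled populations, and none passed (adjusted p = 0.117, 0.0969 and 0.0716). The control-labelled libraries also serve as controls of the plasmid comparisons above.

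**Figure D3:**
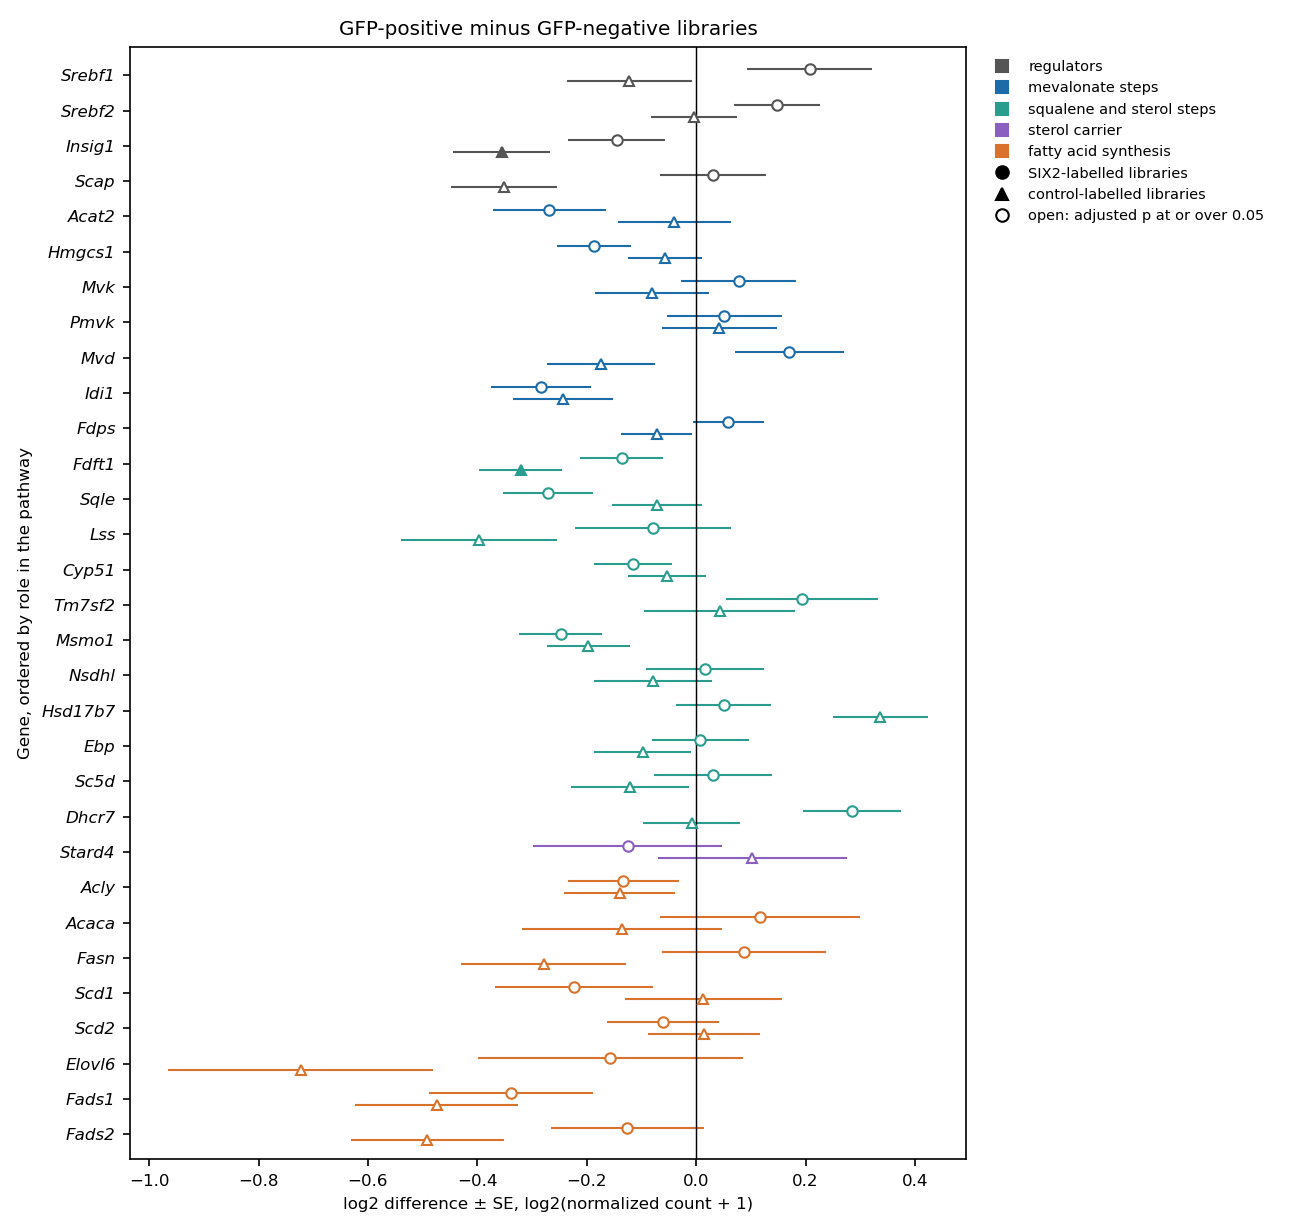
Difference between GFP-positive and GFP-negative libraries for each of the 31 genes, on the scale of log2(normalized count + 1), with its standard error, under the SIX2 label and under the control label, filled where the limma-trend adjusted p was under 0.05. The filled points are those of Insig1 and Fdft1 under the control label, at −0.36 and −0.32.

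Levels per kilobase of transcript put the 31 genes in an order that spans more than 2 powers of 10. Fdps was highest, with 3474 normalized counts per kilobase over the 12 libraries, ahead of Idi1 with 1018, Ebp with 958 and Scd2 with 857. Elovl6 was lowest with 27.3, after Stard4 with 31.6 and Acaca with 53.7. Fdps stood apart from its neighbour in this order, and the libraries of the other 29 neighbouring pairs overlapped. Much of the Fdps sequence also occurs in other genes, as given above. Among the genes that rose in both populations, Acly had 723 per kilobase and the other 5 had 223 or less. Of those that fell in both, Tm7sf2 was the lowest, with 214.

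**Figure D4:**
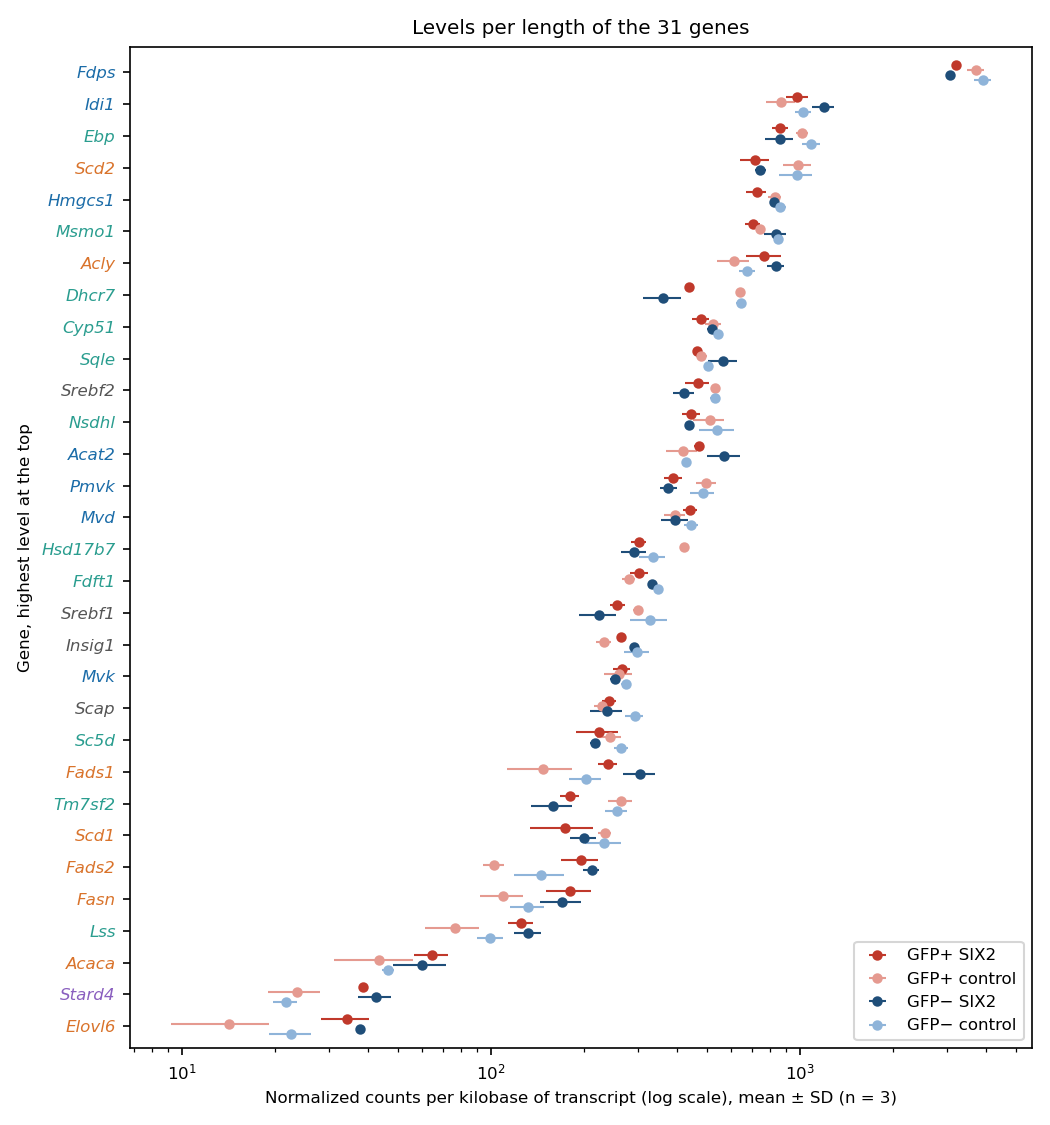
Normalized counts per kilobase of transcript for the 31 genes, ordered by their mean over all libraries, on a logarithmic axis, with the mean ± SD of each group of 3 libraries; the colour of a gene's name gives its role. Fdps stands alone at the high end, at 3474 on average, and Elovl6, Stard4 and Acaca form the low end, under 60.

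Genes around these pathways were read from 4 further lists, set against 12.1% of all tested genes called higher and 11.2% lower in GFP-positive cells, and 13.6% higher and 14.3% lower in GFP-negative cells. Of 13 other sterol and isoprenoid genes, 3 were higher (23.1%) and 1 lower (7.69%) in GFP-positive cells, and 4 were higher (30.8%) and 2 lower (15.4%) in GFP-negative cells. Beside Lbr, Tmem97, a sterol-responsive membrane protein, rose by 0.77 ± 0.09 in GFP-positive cells (adjusted p = 4.54e-05) and by 0.61 ± 0.09 in GFP-negative cells (adjusted p = 0.000232). Dhdds, a subunit of the enzyme that makes dolichol chains from farnesyl diphosphate, fell by 0.55 ± 0.09 in GFP-positive cells (adjusted p = 0.000632) and by 0.41 ± 0.09 in GFP-negative cells (adjusted p = 0.00377). Nus1, its partner subunit, rose in GFP-negative cells (log2 0.46 ± 0.12, adjusted p = 0.0111). Of 12 tested genes for sensing, efflux and storage of sterols, 3 were higher (25.0%) and 1 lower (8.33%) in GFP-positive cells, and 2 were higher (16.7%) and 1 lower (8.33%) in GFP-negative cells. Soat1, which esterifies cholesterol for storage, rose by 0.53 ± 0.11 in GFP-positive cells (adjusted p = 0.00282) and by 0.95 ± 0.11 in GFP-negative cells (adjusted p = 3.73e-05). Nceh1, which hydrolyses cholesterol esters, fell by 0.33 ± 0.11 in GFP-positive cells (adjusted p = 0.0404) and by 0.53 ± 0.11 in GFP-negative cells (adjusted p = 0.00266).

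Of 22 other genes of fatty acid and lipid synthesis, 5 were higher (22.7%) and 4 lower (18.2%) in GFP-positive cells, beside 12.1% and 11.2% of all tested genes. In GFP-negative cells 2 were higher (9.09%) and 7 lower (31.8%), beside 13.6% and 14.3%. Hacd2, a dehydratase of the elongation cycle in which ELOVL6 acts, rose by 0.57 ± 0.14 in GFP-positive cells (adjusted p = 0.00875) and by 0.59 ± 0.14 in GFP-negative cells (adjusted p = 0.00581). Tecr, the reductase of the same cycle, fell by 0.34 ± 0.06 in GFP-positive cells (adjusted p = 0.000632) and by 0.39 ± 0.06 in GFP-negative cells (adjusted p = 0.0002). Hacd1, a dehydratase of the cycle found mainly in muscle, fell by 0.28 ± 0.05 in GFP-positive cells (adjusted p = 0.00258) and by 0.35 ± 0.05 in GFP-negative cells (adjusted p = 0.000428). Slc25a1, which exports citrate from mitochondria as the substrate of ACLY, rose by 0.57 ± 0.14 in GFP-positive cells (adjusted p = 0.0106). Me1, malic enzyme, which supplies NADPH, fell by 0.59 ± 0.09 in GFP-negative cells (adjusted p = 0.000486).

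Of 16 tested genes for uptake and oxidation of fatty acids, 7 fell and none rose in each population. Cd36, a fatty acid translocase, fell in both populations, with log2 differences of −1.66 ± 0.18 in GFP-positive cells (adjusted p = 3.21e-05) and −1.54 ± 0.18 in GFP-negative cells (adjusted p = 5.41e-05). Fabp3, the muscle fatty acid binding protein, fell by 1.03 ± 0.06 in GFP-positive cells (adjusted p = 9.17e-07) and by 0.79 ± 0.06 in GFP-negative cells (adjusted p = 3.09e-06). Acadl, the long-chain acyl-CoA dehydrogenase of mitochondria, fell by 0.55 ± 0.06 in GFP-positive cells (adjusted p = 2.26e-05) and by 0.46 ± 0.06 in GFP-negative cells (adjusted p = 7.74e-05). The background is the 11.2% of all tested genes that were lower in GFP-positive cells and the 14.3% in GFP-negative cells. Of the 8 fatty acid synthesis genes above, 6 were higher in GFP-positive cells, beside 12.1% of all tested genes, and 4 in GFP-negative cells, beside 13.6%.

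**Figure D5:**
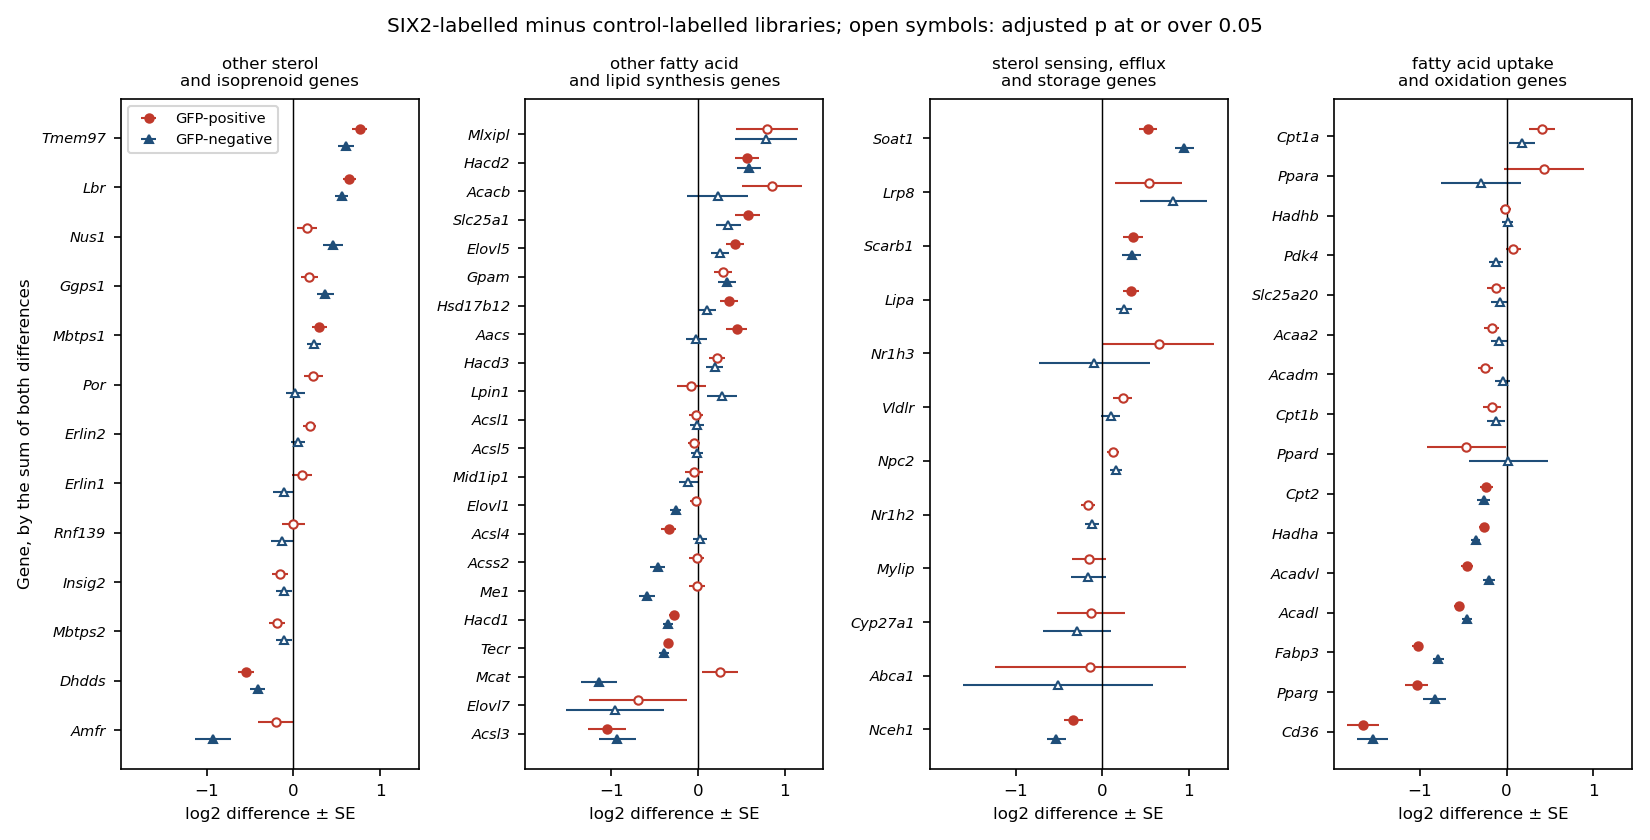
Difference between SIX2-labelled and control-labelled libraries for each tested gene of the 4 further lists, on the scale of log2(normalized count + 1), with its standard error; circles are GFP-positive and triangles GFP-negative libraries, filled where the limma-trend adjusted p was under 0.05. All filled points of fatty acid uptake and oxidation lie left of 0, with Cd36 farthest, at −1.66 and −1.54, while Tmem97, Lbr, Hacd2 and Soat1 are filled right of 0 in both populations.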

How the data were processed

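RNA was reverse transcribed by SMART-Seq2, fragmented with Tn5 and amplified, per the labels' protocols; strand is not marked. Per the submitters' processing notes, the build was GRCm38 and the tools included STAR 2.7.11a, RSEM 1.3.3 and DESeq2 1.42.0. The authors deposited normalized counts per gene, a linear signal divided by a size factor per library. Divided by each library's step, 100% of values came out whole (tolerance 1e-04).

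The 12 libraries were fitted together by limma-trend on log2(normalized count + 1), with limma 3.58.1 in R 4.3.3, a scale that understates changes of low genes. The 14580 genes that reached 10 normalized counts in 3 or more libraries were tested two-sided. The threshold was 0.05 after Benjamini-Hochberg adjustment over these genes within each comparison. The members and lists were chosen with earlier results of these data known, and no list was tested as a set. Values per library are given for the 4 regulators and for members called with an absolute log2 difference of at least 0.5. Of each further list, up to 3 called genes with the smallest p per direction were eligible for naming. Levels per kilobase and GC use the principal transcript of GENCODE M21, to which 99.8% of identifiers matched. The fit was tested on simulated data. Alternatives were pseudocounts of 0.5 and 5, other filters and scalings, a replicate block, library weights, GC trend removal, omission of each library, thinning, edgeR 4.0.16 and DESeq2 1.42.0. Replicate pairs differed by more than counting error (chi-square divided by its degrees of freedom, 7.71 to 49.4). Figures were drawn with matplotlib 3.10.9.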

Additional observations from a re-analysis of the deposited data

How the results depend on the processing

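Among the 31 genes, no difference that passed changed direction under any of 26 alternative settings; single genes of the further lists were not recomputed. Of the 32 plasmid-label differences that passed among the 31 genes, 15 passed in every setting and 18 passed on omission of each single library. The number of the 31 called in GFP-positive cells was 16, with 10 when the fit held the compared libraries alone and 11 to 16 on omission of 1 library. In GFP-negative cells it was 16, with 14 to 20 in other settings and 10 to 17 on omission of 1 library, the lowest without SIX2-labelled library 2. Between populations under the control label it was 2, with 5 by DESeq2, 7 with library weights, and 0 without a filter, with quantile normalization, with the compared libraries alone, with a replicate block and with that block plus GC trend removal. Omission of 1 library gave 0 to 3. Under the SIX2 label it was 0, with 0 to 1 on omission of 1 library, the 1 being Dhcr7 without GFP-negative SIX2-labelled library 1.

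Same-numbered libraries did not deviate together (correlations of −0.203 to 0.0445), and the main fit did not pair them. With 3 libraries per group such correlations cannot show that they are unpaired, and no label states it. With the replicate number as a block, 13 of the 31 passed in GFP-positive cells and 15 in GFP-negative cells, and with GC trend removal and the block 12 and 16. In that last fit Srebf2 in GFP-negative cells no longer passed (adjusted p = 0.0587). All genes called in GFP-negative cells came to 4075, with 6142 as the highest count over the settings. Between control-labelled populations all genes called ranged from 68 to 1520. Depth differed between the groups: thinned to the smallest library, 13 of the 31 passed in GFP-positive cells and 15 in GFP-negative cells. On the recovered whole reads, edgeR called 15 of the 31 and 3299 of all genes in GFP-positive cells, and 16 of the 31 and 4064 of all genes in GFP-negative cells.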
